A study of Mus musculus with 9 samples.

Results

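The genes of the mitochondrial genome were taken as every row of the deposited count table whose symbol begins with mt-. The rule found 37 of 55401 rows: 13 protein genes, 2 ribosomal RNA (rRNA) genes and 22 transfer RNA (tRNA) genes. RNA was sequenced from whole mouse hearts in 3 groups of 3 libraries. Control hearts were wild type, and the design text has a sham operation for mice without aortic banding. TAC hearts were wild type, 12 weeks after transverse aortic constriction, which narrows the aorta and loads the left ventricle. KO-TAC hearts had the same operation and time point and came from c-Myc flox/flox;Tcf21 iCre mice, in which tamoxifen (45 mg/kg for 5 days) activates a Cre recombinase driven from the fibroblast gene Tcf21 and deletes Myc in cardiac fibroblasts. All were male mice operated on at 8 to 12 weeks of age. Whether the wild-type mice had tamoxifen is stated in none of the sources used here, and no knockout without TAC and no Cre control was analysed, so Cre, tamoxifen and loss of Myc cannot be told apart. The labels number the libraries of a group without saying that each is a separate mouse, so p-values reflect only how much these libraries vary, which may be technical.

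Mitochondrial DNA is a small circle that codes for core subunits of respiratory complexes I, III, IV and V and for the RNAs of the mitochondrial ribosome. Both strands are transcribed as long precursors, from which the tRNAs are cut out like punctuation marks, releasing the rRNAs and messenger RNAs (mRNAs). The mRNAs have almost no untranslated sequence and most receive a short poly(A) tail. Every other subunit, and every protein that copies, transcribes or translates this genome, comes from the nucleus. Heart muscle cells are packed with mitochondria, so transcripts of this genome make up a large part of heart RNA.

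In the GRCm38 annotation, 9 of the 37 genes lie on the minus strand: mt-Nd6 and 8 tRNA genes. None of the 37 has an intron, so every position given here is exonic. In 2 places, neighbouring protein genes on the plus strand are read in overlapping frames from the same mRNA, and reads over the overlap cannot be assigned to 1 gene. The junctions are shown because the ratios of these gene pairs, given further on, compare the upstream with the downstream frame of a single mRNA. The first covers chrM:7907-7989 and the second chrM:10147-10193, both on the plus strand of GRCm38, with the bases that both frames share in capitals (43 and 7 bases).

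mt-Atp8 and mt-Atp6: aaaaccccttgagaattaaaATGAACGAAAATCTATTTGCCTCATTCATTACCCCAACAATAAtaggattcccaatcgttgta
mt-Nd4l and mt-Nd4: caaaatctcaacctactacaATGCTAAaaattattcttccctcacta

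On the opposite strand, mt-Nd6 shares 14 bases with the end of mt-Nd5. The libraries were made with a directional kit, but no source used here gives the strand setting of the counting, so sense and antisense reads at mt-Nd5, mt-Nd6, mt-Ts1 and mt-Te are not known to have been kept apart.

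The mitochondrial genome also has nuclear copies, and these held many counts. A search of all nuclear transcripts found 11 gene models matching it at 95% identity or more over at least 80% of their length. A block of 7 of them lies on the minus strand of chromosome 1: Gm29216 (matching the last part of mt-Co1), Gm28661 (mt-Co2), Gm10925 (mt-Atp6), Gm28437 (mt-Co3), Gm28438 (mt-Nd3), Gm10222 (mt-Nd4l) and Gm28439 (the first part of mt-Nd4). Across the aligned bases of these 7 models only 2 differ from the mitochondrial genes, T3C in Gm28438 and A1066T in Gm29216, where the mitochondrial base comes first and positions count from the gene's first base. Both sites are shown, with the differing base in capitals, because within the aligned bases they are where a read could tell gene from copy. The mitochondrial sites are at chrM:9459-9486 and chrM:6390-6418 on the plus strand (GRCm38). The Gm28438 site is at chr1:24613092-24613119, and the Gm29216 site lies within that gene model (chr1:24615706-24616197), both on the minus strand.

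mt-Nd3: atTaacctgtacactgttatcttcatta
Gm28438: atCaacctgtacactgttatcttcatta
mt-Co1: ggaAttgttttatccaactcatcccttga
Gm29216: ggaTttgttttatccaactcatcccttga

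The 5 copies that span nearly a whole gene held 79.7% to 100.5% as many counts as the gene itself in every library. The partial copies held less: Gm28439, over 63.57% of mt-Nd4, had 14.51% to 35.01% of its count, and Gm29216, over 31.26% of mt-Co1, had 13.4% to 24.0%. All 11 copies together took 7.41% to 10.5% of all counts. No source used here states whether a read matching both places was divided between them or counted at each. Levels of these 7 genes are therefore uncertain. No gene model of this block was assigned to mt-Atp8, mt-Nd1, mt-Nd2, mt-Nd5, mt-Nd6 or mt-Cytb. Gm10925 does span the 43 bases that mt-Atp8 shares with mt-Atp6. Only annotated transcripts were searched, so copies of these genes outside gene models would have been missed.

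Total counts per library were 59702513 to 109162107. At that depth counting error was small: the 95% Wilson interval of the summed mitochondrial share reached at most 0.0112 percentage points to either side, covering counting error only. Myc, the deleted gene, had 2.14, 2.47 and 1.55 CPM (counts scaled to a fixed library total with edgeR's TMM factors) in control replicates 1 to 3, 8.93, 6.22 and 14.2 in TAC, and 4.22, 1.87 and 4.75 in KO-TAC. Because the deletion is aimed at fibroblasts, a whole-heart count is only a partial check of it. Cardiomyocyte markers (12 of 12 detected) took 8.00% to 8.46% of counts in control, 4.98%, 8.82% and 2.30% in TAC replicates 1 to 3, and 6.81%, 8.05% and 8.22% in KO-TAC. The summed CPM of 8 fibroblast markers was 789 to 831 in control, 1767, 711 and 2074 in TAC hearts and 1253, 1159 and 915 in KO-TAC, and that of 8 endothelial markers was 851 to 880, 766 to 1655 and 871 to 999. Macrophage markers (7) summed to 131 to 143 CPM in control, 122 to 279 in TAC hearts and 132 to 201 in KO-TAC, and lung markers to 0.109 CPM or less. The 5 erythroid markers summed to 737 to 1167 CPM in control, 762, 1431 and 3474 in TAC replicates 1 to 3 and 839 to 1216 in KO-TAC. By TMM factor TAC replicate 3 and KO-TAC replicate 1 stood apart, at 1.448 and 1.245 against 0.853 to 1.008 in the other 7 libraries. By cardiomyocyte and fibroblast markers TAC replicates 1 and 3 lay farthest from control, and TAC replicate 2 was near it (8.82% and 711 CPM). The part of these differences in the results below was not tested. In whole-heart RNA, fewer cells of a type and less RNA per cell cannot be told apart.

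Mitochondrial genes took about 3 in 10 counts in every group, and only KO-TAC lay wholly below control. Control replicates 1 to 3 gave 34.4%, 31.0% and 30.9% (32.1% ± 1.99, SD, n = 3). TAC replicates gave 38.5%, 30.0% and 26.3% (31.6% ± 6.23, SD, n = 3), which spread to both sides of control. KO-TAC replicates gave 23.8%, 26.2% and 30.6% (26.9% ± 3.48, SD, n = 3). The highest KO-TAC library was below the lowest control library by less than the spread within either group, and KO-TAC overlapped TAC. The difference of means was -5.25 percentage points against control (-3.704 without KO-TAC replicate 1) and -4.71 against TAC, where the TAC spread alone was larger. TAC and control means differed by -0.54 points. With the nuclear copies added the shares were 43.0%, 38.7% and 38.3% in control, 48.9%, 37.5% and 34.0% in TAC hearts and 31.9%, 34.0% and 38.6% in KO-TAC, and the KO-TAC and control ranges then overlapped. No test was made of the shares, which are sums over the genes chosen.

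**Figure D1:**
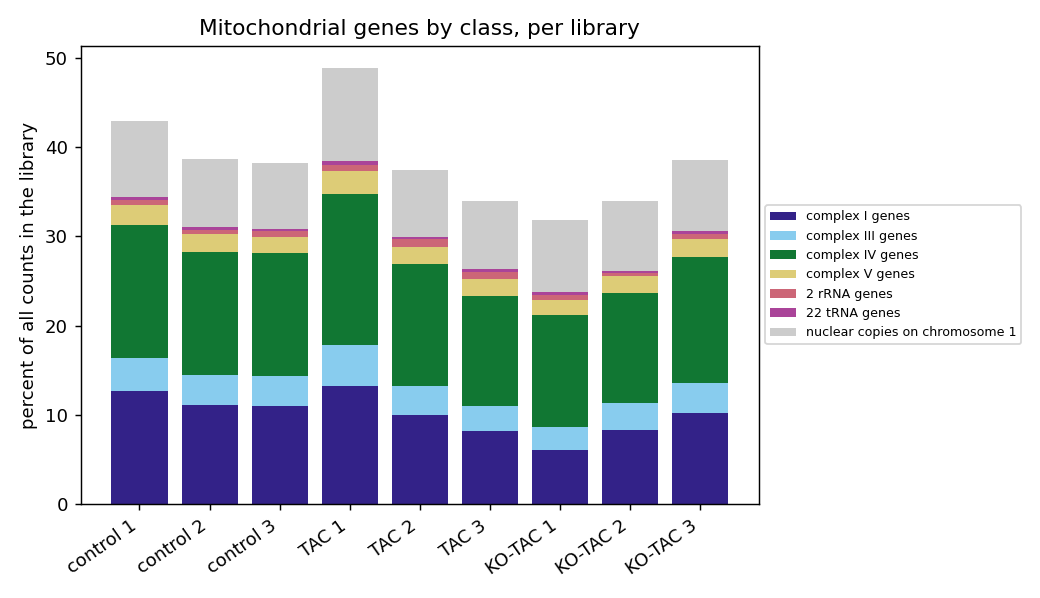
Percent of all counts in each of the 9 libraries (bar height, from 0) taken by the mitochondrial genes of each class and by the nuclear copies on chromosome 1 (grey). TAC replicate 1 has the tallest bar, and complex I genes (dark blue) take 10.98% or more in control and 6.07% in KO-TAC replicate 1.

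Protein genes made up nearly all of the counts, at 30.0% to 33.5% in control, 25.2% to 37.4% in TAC hearts and 22.8% to 29.7% in KO-TAC. rRNA counts were low for so abundant a molecule, at 0.565%, 0.502% and 0.628% in control, and no source used here says whether the libraries were depleted of rRNA or selected for poly(A). TAC libraries had 0.685%, 0.875% and 0.844% rRNA, each above every control library, and KO-TAC libraries had 0.588%, 0.366% and 0.571%, each below every TAC library. As CPM after TMM scaling the rRNA groups overlapped in both comparisons. tRNA genes took 0.282% to 0.324% in control, 0.257% to 0.404% in TAC hearts and 0.263% to 0.353% in KO-TAC.

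Within the mitochondrial genes, complex I held a smaller share in banded (TAC and KO-TAC) than in control hearts, and complex IV a larger one in KO-TAC. Of the counts of the 37 genes, the 7 complex I subunits took 36.8%, 35.9% and 35.5% in control, 34.5%, 33.3% and 31.1% in TAC, and 25.5%, 31.8% and 33.3% in KO-TAC. All 6 TAC and KO-TAC libraries were below all 3 controls, and the TAC and KO-TAC libraries overlapped. The 3 complex IV subunits took 43.3%, 44.4% and 44.4% in control, 44.1%, 45.4% and 46.8% in TAC hearts and 52.6%, 47.1% and 46.2% in KO-TAC, so that KO-TAC lay above control and overlapped TAC. Complex V took 6.03% to 6.42% in control, 6.44% to 7.38% in TAC hearts and 6.57% to 7.36% in KO-TAC, above control in both. Complex III, which is mt-Cytb alone, took between 10.6% and 11.8% in all 9 libraries. These shares sum to 100% with the RNA genes, so a lower share of 1 class raises the others.

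In edgeR's quasi-likelihood test with Benjamini-Hochberg adjustment over 19051 genes, 0 of the 37 genes passed an adjusted p of 0.05 in TAC against control, KO-TAC against TAC or KO-TAC against control. The background was the same, with 0% of all tested genes passing in each comparison, and the common biological variation between libraries of a group was 42.1%. At an unadjusted p under 0.05 the mitochondrial count was also 0 in each comparison, where all genes gave 21.3%, 7.45% and 5.76%. All 37 genes passed the filter on low counts. The background in TAC against control depended on TAC replicate 2: without it edgeR called 5477 of 19920 genes there, and still 0 of the 37. With all libraries kept DESeq2 also called 0 of the 37, against 8.55%, 1.03% and 0.468% of all genes. limma-voom with quality weights called 2 of the 37 in TAC against control, both higher (the tRNA genes mt-Tt and mt-Tv), where it called 37.9% of all genes (18.2% higher and 19.8% lower). It called 0 in KO-TAC against TAC (5.23% of all genes, 3.3% higher and 1.93% lower). In KO-TAC against control it called 1, mt-Nd5, which was lower (5.2% of all genes, 2.4% higher and 2.8% lower). The median log2 difference of the 37 genes was -0.06 for TAC against control, -0.24 for KO-TAC against TAC and -0.41 for KO-TAC against control, beside 0.03, 0.01 and 0.04 for all genes tested. Without KO-TAC replicate 1 the last 2 medians of the 37 were -0.08 and -0.19. For KO-TAC against TAC it was -0.49 without TAC replicate 3 and -0.02 without TAC replicate 1. For TAC against control it was 0.18 without TAC replicate 3, 0.16 by limma-voom and -0.30 without TAC replicate 1, so its sign depends on which library is included. Below 0 were 22, 29 and 30 of the 37 genes in that order of comparisons. The choice of scaling matters for these signs: with library size alone the median of all genes was 0.29 for TAC and 0.28 for KO-TAC against control, and that of the 37 genes was 0.14 and -0.21.

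**Figure D2:**
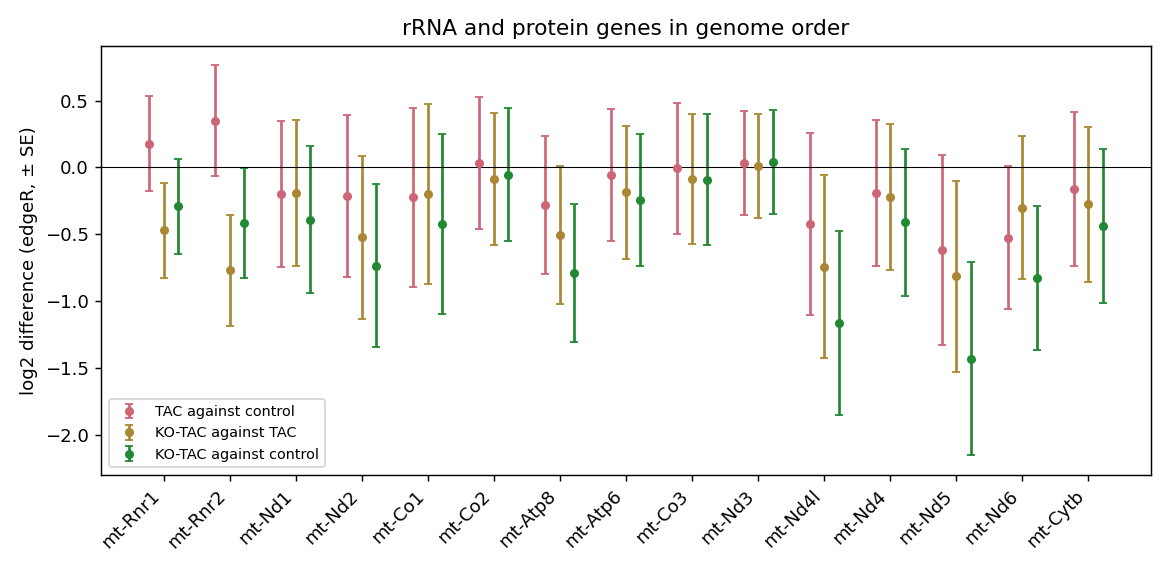
Log2 difference in CPM from edgeR (points, with SE bars) for the 2 rRNA and 13 protein genes in genome order, for the 3 comparisons. Most protein genes lie between 0 and -0.5, and mt-Nd4l and mt-Nd5 reach -1.16 and -1.43 in KO-TAC against control, with SE of 0.689 and 0.721.

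By group separation, mt-Nd5 was the only mitochondrial gene whose CPM was lower in every TAC library than in every control library (1 of 37, 2.7%, against 14% of all genes). In KO-TAC against control there were 6 of 37 (16.2%, against 13.6% of all genes): mt-Nd4l, mt-Nd4, mt-Nd5, mt-Nd6, mt-Cytb and the tRNA gene mt-Te. No gene of the 37 was separated upwards in either comparison (background 14.1% and 12.9%), and 0 were separated in KO-TAC against TAC (background 5.17% higher and 4.8% lower). The share of mitochondrial genes that separated was thus below or near the background.

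Among the complex I subunits, which form the membrane arm that pumps protons, mt-Nd5 (chrM:11742-13565, plus strand) varied most between groups. Its share of all counts was 2.89%, 2.55% and 2.52% in control, 2.50%, 1.93% and 1.35% in TAC, and 0.376%, 1.11% and 1.76% in KO-TAC. All 6 banded hearts were below the 3 controls, and the KO-TAC libraries ranged from far below TAC to within it. In edgeR's fit TAC differed from control by -0.61 on the log2 scale (SE 0.71, adjusted p = 0.619), and the difference was -0.81 for KO-TAC against TAC (SE 0.712, adjusted p = 0.762). For KO-TAC against control it was -1.43 (SE 0.721, edgeR adjusted p = 0.851), and -0.98 without KO-TAC replicate 1. DESeq2 gave an adjusted p of 0.397 and limma-voom of 0.0462 for that last comparison, and over all alternatives it ran from 0.0462 to 1.0. As a share of the 13 protein genes, which does not depend on library size, mt-Nd5 took 8.40% to 8.63% in control, 5.35% to 6.69% in TAC hearts and 1.64%, 4.35% and 5.91% in KO-TAC.

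mt-Nd4l, a small subunit read from the same mRNA as mt-Nd4, had the next lowest values in KO-TAC relative to control. It took 0.384%, 0.324% and 0.316% of counts in control, 0.358%, 0.284% and 0.213% in TAC hearts and 0.0429%, 0.174% and 0.282% in KO-TAC, where the lowest library was KO-TAC replicate 1 and every KO-TAC library was below control. mt-Nd4 itself had 31000 ± 3700 CPM in control, 27100 ± 11000 in TAC hearts and 23300 ± 5800 in KO-TAC (SD, n = 3), with the KO-TAC libraries again below control. The log2 difference of KO-TAC from control was -1.16 (SE 0.689, edgeR adjusted p = 0.858) for mt-Nd4l and -0.41 (SE 0.548, edgeR adjusted p = 0.912) for mt-Nd4.

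mt-Nd2, another membrane subunit, was low in KO-TAC replicate 1. It took 2.17%, 1.87% and 1.78% in control, 2.33%, 1.82% and 1.503% in TAC, and 0.695%, 1.34% and 1.87% in KO-TAC. mt-Nd6, the single protein gene of the minus strand, took 1.17%, 1.01% and 0.923% in control, 1.03%, 0.838% and 0.516% in TAC, and 0.532%, 0.650% and 0.823% in KO-TAC, each KO-TAC library below control. mt-Nd1 took 2.76%, 2.48% and 2.53% in control, 3.24%, 2.33% and 2.10% in TAC hearts and 1.94%, 2.34% and 2.54% in KO-TAC, with all groups overlapping. mt-Nd3, the smallest complex I gene but 1, was not lower in KO-TAC. It took 0.267%, 0.242% and 0.239% in control, 0.385%, 0.235% and 0.254% in TAC hearts and 0.352%, 0.271% and 0.285% in KO-TAC, and each KO-TAC library was above every control on this scale.

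Of the complex IV and V genes, mt-Atp8 had the widest spread. mt-Co1, which carries the oxygen-reducing centre, was the most abundant gene at 11.3%, 10.5% and 10.6% in control, 12.1%, 10.3% and 8.94% in TAC hearts and 8.35%, 8.72% and 10.7% in KO-TAC. mt-Co2, which takes electrons from cytochrome c, held 1.52% to 1.82%, 1.68% to 2.45% and 1.79% to 1.99% in the 3 groups. mt-Co3 (chrM:8607-9390, plus strand), the third core subunit, took 1.77%, 1.63% and 1.62% in control, 2.41%, 1.62% and 1.67% in TAC hearts and 2.17%, 1.74% and 1.66% in KO-TAC, where the first replicate of each banded group was the high one. Its log2 difference was -0.01 for TAC and -0.09 for KO-TAC against control (SE 0.488 for both, edgeR adjusted p = 0.996 and 0.983). mt-Atp6, part of the proton channel of ATP synthase, took 1.63% to 1.89%, 1.69% to 2.29% and 1.57% to 1.76%. mt-Atp8, its neighbour upstream, took 0.322%, 0.258% and 0.238% in control, 0.304%, 0.237% and 0.228% in TAC hearts and 0.0895%, 0.184% and 0.255% in KO-TAC. mt-Cytb, the haem-bearing core of complex III, took 3.38% to 3.77% in control, 2.79% to 4.54% in TAC hearts and 2.60% to 3.37% in KO-TAC.

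mt-Rnr2, of the large subunit, took 0.395%, 0.347% and 0.436% in control, 0.502%, 0.638% and 0.581% in TAC hearts and 0.361%, 0.256% and 0.407% in KO-TAC. On the log2 scale TAC differed from control by 0.35 (SE 0.412, edgeR adjusted p = 0.625) and KO-TAC from TAC by -0.77 (SE 0.414, edgeR adjusted p = 0.688). mt-Rnr1, of the small subunit, took 0.170%, 0.155% and 0.191% in control, 0.183%, 0.236% and 0.263% in TAC hearts and 0.227%, 0.110% and 0.164% in KO-TAC.

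tRNA genes held few counts, and the lowest count of any mitochondrial gene in a library was 23. The tRNA genes with most counts were mt-Ts1 (serine), mt-Te (glutamate), mt-Ty (tyrosine) and mt-Tl1 (leucine). mt-Ts1, which overlaps the last 3 bases of mt-Co1 on the opposite strand, took 0.121%, 0.107% and 0.109% in control, 0.171%, 0.112% and 0.109% in TAC hearts and 0.212%, 0.129% and 0.133% in KO-TAC, each KO-TAC library above every control. mt-Te, which lies next to mt-Nd6 on the same strand, took 0.0933%, 0.0808% and 0.0816% in control, 0.0958%, 0.0613% and 0.0497% in TAC hearts and 0.0618%, 0.0579% and 0.0708% in KO-TAC. As mRNA ends are taken below, mt-Ts1 lies wholly opposite the mt-Co1 mRNA (to base 6941). mt-Te lies wholly opposite that of mt-Nd5 (to base 14144). Whether reads of these mRNAs were counted at the tRNA genes is not known. mt-Ty had 169 ± 26 CPM in control, 172 ± 63 in TAC hearts and 112 ± 43 in KO-TAC, and mt-Tl1 had 161 ± 23, 176 ± 74 and 124 ± 77 (SD, n = 3). The pair called by limma-voom in TAC, and named here after their values were seen, had few counts: mt-Tt had 1.44 to 1.99 CPM in control and 1.47 to 3.75 in TAC, and mt-Tv had 1.20 to 1.71 and 1.19 to 3.11, so both overlapped.

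Per kilobase of gene, and with the copies' counts added, the control hearts ranked mt-Co1 first at 79805 ± 3510 CPM per kilobase. It was followed by mt-Atp6 at 50254 ± 4637, mt-Co2 at 47052 ± 4331 and mt-Co3 at 41541 ± 2055, then mt-Cytb at 30750 ± 1903, mt-Nd1 at 27100 ± 1559 and mt-Nd4 at 27099 ± 1905 (SD, n = 3). mt-Nd4l had 22255 ± 2457, mt-Nd6 19965 ± 2425, mt-Nd2 18680 ± 1981, mt-Nd5 14546 ± 1150, mt-Nd3 13744 ± 1001 and mt-Atp8 13371 ± 2167. Neighbours in this order that differed by less than 1 SD were mt-Atp6 and mt-Co2, mt-Nd1 and mt-Nd4, mt-Nd4l and mt-Nd6, mt-Nd6 and mt-Nd2, and the last 3. Both rRNAs lay below all 13, at 2483 ± 283 for mt-Rnr2 and 1800 ± 194 for mt-Rnr1. If reads were counted at both gene and copy, the genes with a copy are overstated here: without the copies mt-Atp6 had 25393, mt-Co2 24384 and mt-Co3 21359 CPM per kilobase, below mt-Cytb and mt-Nd1.

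Ratios between members within a library do not depend on library size, and those of mt-Nd5 to mt-Co3 and to mt-Nd4 separated control from banded (TAC and KO-TAC) hearts. As log2 of counts per kilobase, mt-Nd5 to mt-Co3 was -0.51, -0.57 and -0.59 in control, -1.17, -0.97 and -1.52 in TAC hearts and -3.75, -1.86 and -1.14 in KO-TAC. Put as plain ratios, without the copies, mt-Nd5 stood at 0.665 to 0.701 of mt-Co3 in control and at 0.0744 in KO-TAC replicate 1. Every TAC and KO-TAC library was below every control, and TAC and KO-TAC overlapped. The level of such a ratio depends on the copies. In control mt-Co3 had 21359 CPM per kilobase without them and 41541 with them, and mt-Nd4 20144 and 27099. mt-Nd5 had 14545 and 14546. mt-Nd5 to mt-Nd4 was -0.46, -0.46 and -0.49 in control, -0.86, -0.81 and -1.14 in TAC hearts and -2.91, -1.53 and -0.9996 in KO-TAC, with the same separation. mt-Nd6 to mt-Nd5 was 0.37 to 0.51 in control, 0.43 to 0.61 in TAC hearts and 2.32, 1.04 and 0.72 in KO-TAC, where all 3 KO-TAC libraries were above the other 6. mt-Nd6 lies wholly opposite the mt-Nd5 mRNA, taken below to end at base 14144, and the strand setting of the counting is not known. This ratio may therefore compare parts of a single mRNA, which was not tested.

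An exact permutation test of the 3 groups, two-sided, over 1680 assignments of the libraries gave p = 0.0429 for mt-Nd5 to mt-Co3, 0.0357 for mt-Nd5 to mt-Nd4 and 0.0143 for mt-Nd6 to mt-Nd5. Adjusted over the 7 ratios tested each came to 0.1 and none passed. The smallest p this test can give is 0.00357. The other 4 ratios had exact permutation p-values of 0.164 (mt-Co1 to mt-Co3), 0.118 (mt-Cytb to mt-Nd1), 0.175 (mt-Rnr2 to mt-Nd1) and 0.432 (mt-Rnr1 to mt-Rnr2), with adjusted values of 0.204, 0.204, 0.204 and 0.432. mt-Cytb to mt-Nd1 was the steadiest ratio, between 0.09 and 0.23 in all 9 libraries. Without KO-TAC replicate 3 the exact permutation test passed for 4 ratios, with adjusted p = 0.0125 for mt-Nd5 to mt-Co3 and mt-Nd5 to mt-Nd4 and 0.025 for mt-Nd6 to mt-Nd5 and mt-Co1 to mt-Co3. That library was the KO-TAC library nearest to control in these 4 ratios. Under the other 10 alternatives the outcome for them was the same as with all libraries.

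Ratios of genes that are read from 1 mRNA were also listed, after the values had been seen and without a test. mt-Nd4l to mt-Nd4, the upstream to the downstream frame, was -0.75, -0.82 and -0.87 in control, -1.05, -0.96 and -1.19 in TAC hearts and -3.42, -1.59 and -1.02 in KO-TAC, and control again lay above all banded hearts. mt-Atp8 to mt-Atp6, likewise upstream to downstream, was -0.81, -0.96 and -1.03 in control, -1.18, -1.10 and -1.17 in TAC hearts and -2.40, -1.50 and -1.04 in KO-TAC. A comparison inside single genes was possible through the partial copies, on the assumption that a copy's count equals the count of the stretch it covers. The first part of mt-Nd4 against its rest was -1.72, -1.70 and -1.76 in control, -1.99, -1.83 and -1.98 in TAC hearts and -3.36, -2.23 and -1.89 in KO-TAC. The last part of mt-Co1 against its rest was -1.42, -1.44 and -1.56 in control, -1.19, -1.43 and -1.04 in TAC hearts and -0.53, -0.97 and -1.31 in KO-TAC. In both genes the part nearer the 5′ end held relatively fewer counts in all 3 KO-TAC libraries than in any control library.

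**Figure D3:**
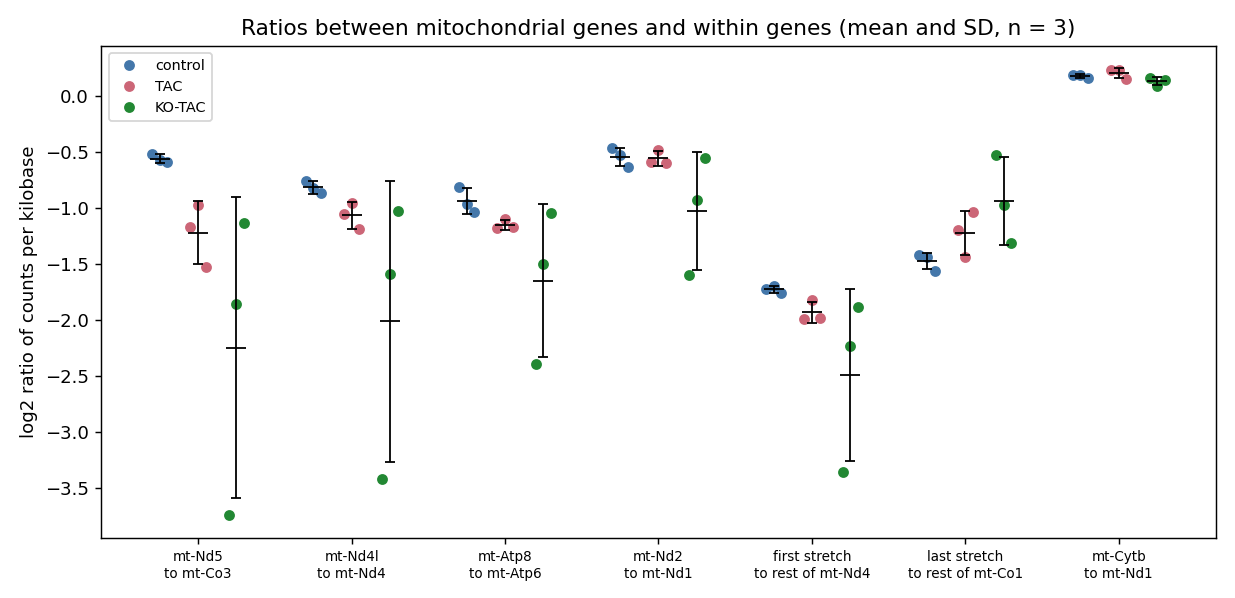
Log2 ratio of counts per kilobase for 5 pairs of genes and for parts of 2 genes, by group (points are libraries, bars the mean and SD, n = 3). Counted from the left, KO-TAC replicate 1 is the lowest point of the first 5 ratios plotted (mt-Nd5 to mt-Co3, mt-Nd4l to mt-Nd4, mt-Atp8 to mt-Atp6, mt-Nd2 to mt-Nd1 and the first part of mt-Nd4 to its rest), and the ratio of mt-Cytb to mt-Nd1 lies between 0.09 and 0.23 in every library.

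The 12 plus-strand protein genes were then placed by the distance from the middle of the gene to the end of its mRNA, taken as the last base before the next gene on that strand. This distance was 174.5 bases for mt-Nd3, 391.5 for mt-Co3, 1490.5 for mt-Nd5, whose mRNA runs on through the region opposite mt-Nd6, and 1520 for mt-Nd4l. In KO-TAC replicate 1 the log2 difference in share from the control mean ran from 0.50 for mt-Nd3 through 0.38 for mt-Co3, -1.48 for mt-Nd2 and -1.60 for mt-Atp8 to -2.82 for mt-Nd5 and -2.99 for mt-Nd4l. Lower values at longer distance were found in each banded heart: across the 12 genes Pearson's r was -0.91, -0.84 and -0.91 in TAC hearts and -0.90, -0.93 and -0.89 in KO-TAC. In control hearts, each set against the other 2, r was 0.29, -0.49 and -0.11. These are descriptions across genes, which share libraries, controls and in part mRNAs and are not replicates. Without mt-Nd5 and mt-Nd4l, the farthest genes, r over 10 genes was -0.91, -0.48 and -0.74 in TAC hearts and -0.63, -0.75 and -0.77 in KO-TAC, beside 0.21, -0.45 and -0.05 in control, so that TAC replicate 2 was close to control replicate 2. Spearman's rho with distance over the 12 genes was -0.94, -0.73 and -0.74 in TAC hearts and -0.82, -0.895 and -0.84 in KO-TAC. In control it was 0.29, -0.59 and -0.007. With gene length itself Spearman's rho lay between -0.43 and -0.09 in the banded hearts and was -0.44, 0.16 and 0.55 in control.

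**Figure D4:**
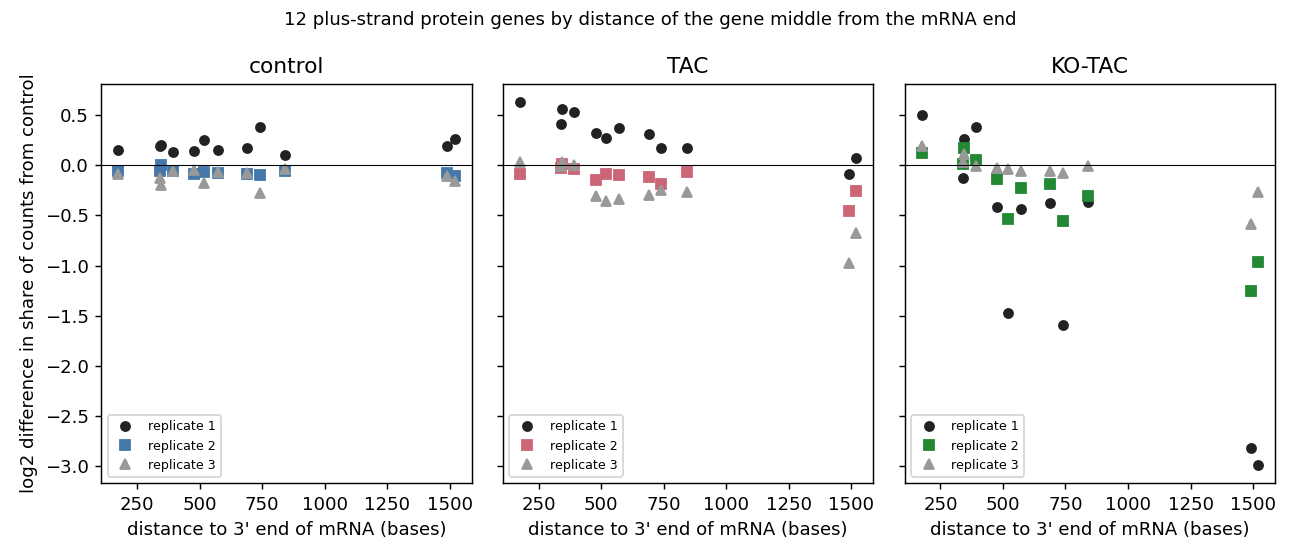
Log2 difference in share of all counts from control (y axis) against the distance in bases from the middle of each of 12 plus-strand protein genes to the end of its mRNA (x axis), by group and replicate; control libraries are set against the other 2 controls. In TAC and KO-TAC the 2 farthest genes lie lowest or near it, down to -2.99 in KO-TAC replicate 1, and in control all values lie between -0.28 and 0.38.

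The relation of nuclear genes to transcript length is given beside it. Across 18585 nuclear genes, Spearman's rho between the log2 difference from control and length was 0.09, -0.05 and -0.07 in control, -0.18, -0.17 and -0.02 in TAC hearts and -0.21, -0.24 and -0.16 in KO-TAC. The KO-TAC libraries lay below control, and TAC overlapped both. No source used here gives RNA quality values, and the part of RNA integrity and of the priming or selection step in the pattern along the mRNAs was not tested.

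Nuclear-encoded partners of the same complexes did not follow the mitochondrial genes library by library. The nuclear subunits of complexes I, III, IV and V took 2.55%, 2.85% and 2.88% of counts in control, 2.43%, 3.08% and 0.895% in TAC hearts and 2.89%, 3.18% and 2.89% in KO-TAC. The low library was TAC replicate 3, which also had the lowest cardiomyocyte marker share (2.30%). Counts of the 13 mitochondrial protein genes per count of nuclear subunit were 13.1, 10.6 and 10.4 in control, 15.4, 9.34 and 28.2 in TAC hearts and 7.89, 8.05 and 10.3 in KO-TAC, so every KO-TAC library was below every control and TAC lay on both sides. In KO-TAC replicate 1 the nuclear subunit share was within the range of the other KO-TAC hearts and the mitochondrial share was the lowest of all 9. By complex, the ratio was 14.3 to 18.4 for complex I in control and 6.87, 9.23 and 12.9 in KO-TAC, whereas for complex V it was 1.48 to 1.97 in control and 1.496 to 1.627 in KO-TAC.

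**Figure D5:**
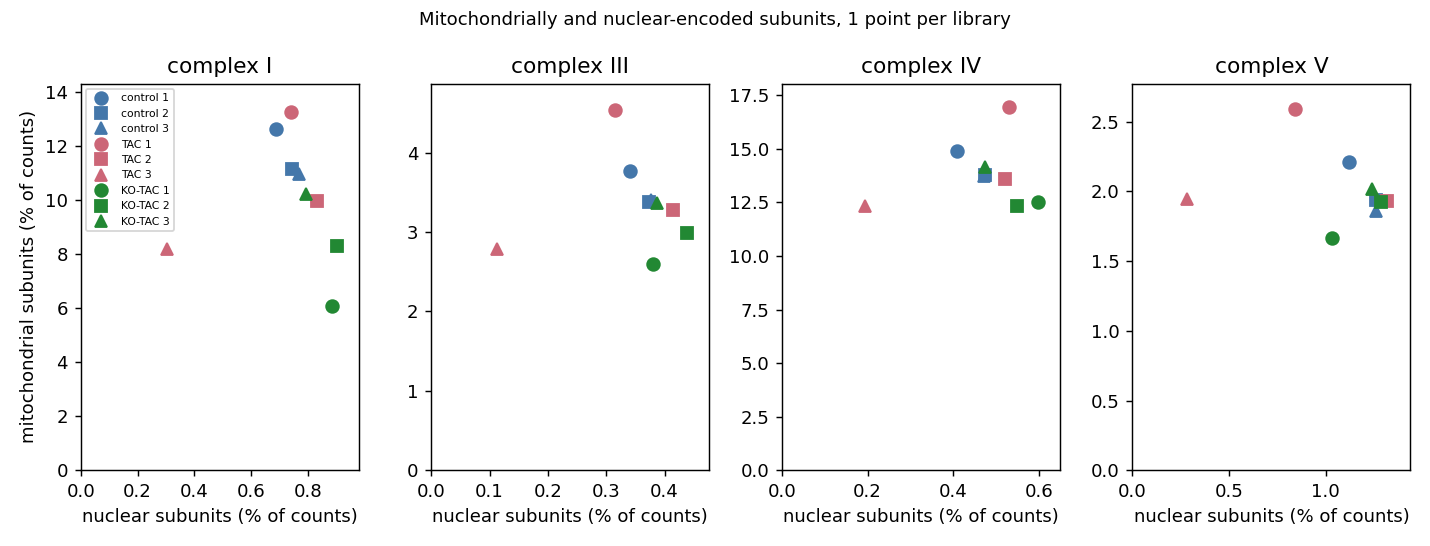
Percent of all counts of the mitochondrially encoded subunits (y axis) against the nuclear-encoded subunits (x axis) of complexes I, III, IV and V, 1 point per library, colour for group and shape for replicate. TAC replicate 3 stands alone at the left of every panel, and in complex I the KO-TAC libraries lie below the controls, at 6.07% to 10.2% against 10.98% to 12.7%.

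Of the nuclear genes that maintain and express mitochondrial DNA, 0 passed edgeR's test in any comparison, as for all genes. The methods differed here. In TAC against control limma-voom put Tfam, Polrmt, Lrpprc and Ppargc1a lower, with adjusted p = 0.00243, 0.013, 0.0025 and 0.00537. It called 37.9% of all genes in that comparison. DESeq2 gave adjusted p = 0.177, 0.555, 0.272 and 0.963 for the same genes. Tfam, which packages mitochondrial DNA and activates its transcription, had 38.5, 33.2 and 33.2 CPM in control, 18.9, 31.9 and 10.9 in TAC hearts and 25.5, 34.1 and 36.1 in KO-TAC. TAC libraries were below control, with a log2 difference of -0.76 (SE 0.337, edgeR adjusted p = 0.232), and KO-TAC overlapped both. Polrmt, the mitochondrial RNA polymerase, had 28.9 to 31.4 CPM in control, 20.02, 33.2 and 21.7 in TAC hearts and 19.1, 26.6 and 29.7 in KO-TAC. Lrpprc, which stabilises mitochondrial mRNAs, had 210 to 239 CPM in control, 72.4, 213 and 25.1 in TAC hearts and 67.2, 161 and 208 in KO-TAC, lowest in the libraries that stood apart and in TAC replicate 1. Ppargc1a, a coactivator of mitochondrial biogenesis, had 85.4 to 93.0 CPM in control, 20.9, 265 and 4.54 in TAC hearts and 38.1, 49.0 and 83.5 in KO-TAC, and TAC replicate 2 alone sets the TAC mean above control.

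Across the lists, 25 genes of mitochondrial transcription and DNA maintenance had a median log2 difference of -0.18 in TAC against control (16 below 0) and 0.17 in KO-TAC against TAC (16 above 0), beside 0.03 and 0.01 for all genes. The 40 genes of mitochondrial RNA processing had medians of -0.38 (29 below 0) and 0.26 (34 above 0), the 16 translation factors -0.59 (15 below 0) and 0.43 (15 above 0), and the 78 mitochondrial ribosomal proteins -0.20 (64 below 0) and 0.35 (76 above 0). Of 11 biogenesis regulators 7 were below 0 in TAC against control (median -0.66) and 10 in KO-TAC against control (median -0.43). For these lists, with the ribosomal proteins last, limma-voom called 13 of 25, 23 of 40, 10 of 16, 8 of 11 and 22 of 78 in TAC against control. All genes gave 37.9% there. In KO-TAC against TAC it called 3, 8, 1, 2 and 8, beside 5.23% of all genes. DESeq2 called 0, 2, 0, 1 and 0 in TAC against control, beside 8.55% of all genes. Nuclear subunits of complexes I, III, IV and V had medians of -0.18, -0.35, -0.17 and -0.31 in TAC against control and of 0.28, 0.36, 0.27 and 0.34 in KO-TAC against TAC. The 4 subunits of complex II, which has no mitochondrially encoded part, had medians of -0.80 and 0.49. In KO-TAC against control the nuclear subunit medians were 0.10, 0.02, 0.07 and 0.04 for complexes I, III, IV and V, where the 13 mitochondrial protein genes had -0.42 (-0.25 without KO-TAC replicate 1). The signs for these subunits rest on TAC replicate 3: without it the subunits of complexes I, III, IV and V had 0.21, 0.06, 0.20 and 0.14 in TAC against control and -0.10, -0.04, -0.14 and -0.11 in KO-TAC against TAC, and the ribosomal proteins had 0.09 and 0.06. Other lists stayed below 0 in TAC against control without that library, at -0.30 for RNA processing, -0.26 for translation factors, -0.19 for biogenesis regulators and -0.31 for complex II. Against TAC, KO-TAC then had 0.09, 0.10, 0.05 and -0.01 for these lists. Both comparisons use the same TAC libraries, and the cardiomyocyte markers had medians of -0.36 (12 of 12 below 0) and 0.37 (12 of 12 above 0) in these comparisons. The part of heart muscle cell content in the list medians was not tested. 

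Among the most abundant members of each list none passed edgeR's test. In the order TAC against control, KO-TAC against TAC and KO-TAC against control, the log2 differences of Ndufv1, the complex I subunit that takes electrons from NADH, were -0.62, 0.33 and -0.29. Uqcrc1 and Uqcrc2, the core proteins of complex III, had -0.57, 0.33 and -0.24 and -0.91, 0.56 and -0.34. Cox4i1 and Cox6a2, complex IV subunits, had -0.25, 0.28 and 0.03 and -0.06, 0.14 and 0.08. Atp5b and Atp5a1, the catalytic head of ATP synthase, had -0.79, 0.33 and -0.46 and -0.96, 0.55 and -0.41. Atp5a1 had 3609 to 3691 CPM in control, 1390, 3956 and 254 in TAC hearts and 1500, 3050 and 3649 in KO-TAC, so a single TAC library was at the control level. Sdha and Sdhb, of complex II, had -1.21, 0.49 and -0.73 and -0.45, 0.35 and -0.09. Polg, the polymerase that copies mitochondrial DNA, had -0.06, -0.13 and -0.19, and Mpv17, an inner membrane protein needed to keep that DNA, had -0.68, 0.17 and -0.51. Fastk, of the RNA processing list, had -0.28, 0.24 and -0.03. The elongation factors Tufm and Gfm1 had -0.52, 0.42 and -0.10 and -1.04, 0.54 and -0.50. Of the biogenesis regulators, Perm1 had -0.66, 0.52 and -0.15 and Esrra -0.41, 0.36 and -0.05. The ribosomal proteins Mrpl42 and Mrpl12 had -0.66, 0.57 and -0.09 and -0.24, 0.64 and 0.41. All of these nuclear genes were below 0 in TAC against control, and all but Polg were above 0 in KO-TAC against TAC. By limma-voom, Ndufv1, Uqcrc2, Atp5b, Atp5a1, Sdha, Polg, Mpv17, Gfm1, Perm1, Esrra and Mrpl42 passed as lower in TAC against control. Their limma-voom adjusted p ran from 0.00182 (Sdha) to 0.0454 (Ndufv1). Uqcrc1, Cox4i1, Cox6a2, Sdhb, Fastk, Tufm and Mrpl12 did not pass by limma-voom. It called 37.9% of all genes in that comparison, 19.8% as lower. For the genes that passed by limma-voom, DESeq2 gave adjusted p from 0.297 (Mpv17) to 0.918 (Polg). The signs of these genes rest in part on TAC replicate 3. Without it Cox4i1 (0.17), Cox6a2 (0.38), Sdhb (0.01) and Mrpl12 (0.12) were above 0 in TAC against control. In KO-TAC against TAC, Ndufv1, Uqcrc1, Cox4i1, Cox6a2, Atp5b, Sdha, Sdhb, Mpv17 and Tufm were then below 0, between -0.30 for Cox6a2 and -0.0038 for Tufm. Neat1, an RNA kept in the nucleus, had 1017 to 1219 CPM in control, 2138, 1243 and 4200 in TAC hearts and 2746, 1337 and 1158 in KO-TAC, higher in TAC replicates 1 and 3 and KO-TAC replicate 1 than in any other library, and Malat1 had 453 to 618, 336 to 399 and 345 to 525.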

How the data were processed

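Per the labels' protocols, Trizol-extracted heart RNA went into a directional NEBNext library kit. The authors deposited raw counts per gene symbol, whole numbers without normalization as far as the values show. The submitters' processing notes name DESeq2 1.42.0, StringTie 2.2.1, HISAT2 2.2.1, Trim Galore 0.6.10 and SAMtools 1.15, with GRCm38 and mm10 as builds. No source used here states the counting step, its annotation, its strand setting or how it treated reads matching several places.

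The table has 55401 rows, of which 110 repeat a symbol. Libraries of 1 group differed by more than counting noise (lowest chi-square over its degrees of freedom, 23.4). Genes, positions and sequences come from GENCODE's GRCm38 annotation and transcripts. Nuclear copies were found with blastn 2.17.0. Shares are percent of all counts of a library. The test was edgeR 4.0.16 (R 4.3.3; glmQLFTest, two-sided, TMM scaling, genes kept by filterByExpr at its minimum of 10 counts, Benjamini-Hochberg over 19051 genes), with all 9 libraries in 1 fit. CPM were scaled by TMM. On simulated TAC against control data, with 1 spread per gene for all groups, the fit recovered 171 of 200 genes changed 4-fold. It called 8 of the unchanged genes among 18370. The real groups differed in spread, with chi-square per degree of freedom of 23.4 to 49.0 between control and 470 to 1111 between TAC libraries. No mitochondrial gene differed 4-fold in the fit (lowest log2 difference -1.43). The simulation therefore does not give the power of the test for these genes. Ratios were tested by exact permutation over 1680 assignments, adjusted over 7 ratios.

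All 13 protein and both rRNA genes were named, with the 4 tRNA genes of highest count and any that passed. Of nuclear lists, Tfam, Polrmt, Lrpprc, Ppargc1a and the 2 members of highest mean CPM were named, except 1 gene that is not reported here. Copies were named from 1% of counts in any library, and the remaining models of the chromosome 1 block with them. The members and lists were chosen with earlier results of these data known. Alternatives were factors by RLE or upper quartile, no factors (library size alone), mitochondrial genes removed before scaling or used as the library size, DESeq2 1.42.0, limma-voom with quality weights (limma 3.58.1), other filters, only the compared groups, copies added, a replicate block and each library left out.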

Additional observations from a re-analysis of the deposited data

How the results depend on the processing

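Of the counts of mitochondrial genes passing, all alternatives gave 0 except limma-voom with quality weights (2 in TAC against control, 1 in KO-TAC against control). Whether the 3 shared replicate numbers pair the libraries is not settled. Correlations of deviations from the group means ran from -0.255 to 0.124 between same-numbered libraries and from -0.434 to 0.355 between the others. Deviations from a mean of 3 libraries sum to 0, which constrains these values. The TAC columns of the deposited counts also carry other numbers than the sample titles. With the replicate number as a block, 0 mitochondrial genes passed in each comparison, and the 3 mt-Nd5 ratios had exact permutation p-values of 0.139, 0.139 and 0.0278 (adjusted 0.194), the last being the smallest that permuting within numbers can give.

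Differences in log2 ratio between KO-TAC and control, with each library left out, ranged from -2.248 to -0.9414 for mt-Nd5 to mt-Co3 and from -1.751 to -0.7952 for mt-Nd5 to mt-Nd4. They ranged from 0.4253 to 1.223 for mt-Nd6 to mt-Nd5, from -0.5521 to -0.1797 for mt-Co1 to mt-Co3, from -0.1909 to 0.1946 for mt-Rnr2 to mt-Nd1 and from -0.07342 to 0.2497 for mt-Rnr1 to mt-Rnr2. The lowest of the first 2 and of mt-Co1 to mt-Co3, and the highest for mt-Nd6 to mt-Nd5, came without KO-TAC replicate 3. That was the only alternative in which these 4 ratios passed. The opposite ends of these 4 came without KO-TAC replicate 1. The mitochondrial share of KO-TAC minus control ran from -7.132 to -3.704 points, that of KO-TAC minus TAC from -7.337 to -1.273, and that of TAC minus control from -3.974 to 2.09.

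Medians of nuclear lists followed the scaling. With library size alone, KO-TAC against control gave 0.178 (transcription and DNA maintenance), 0.324, 0.237, 0.292 and 0.251 (nuclear subunits of complexes I, III, IV and V) and 0.397 (ribosomal proteins), and TAC against control 0.0541 (transcription and DNA maintenance). With the library size set to the mitochondrial protein genes, KO-TAC against control gave 0.451 (transcription and DNA maintenance), 0.383 (RNA processing), 0.324 (translation factors), 0.0014 (biogenesis regulators), 0.604, 0.518, 0.575 and 0.522 (complexes I, III, IV and V), 0.31 (complex II), 0.976 (nuclear-retained RNAs) and 0.677 (ribosomal proteins). For transcription and DNA maintenance it also gave 0.149 in TAC against control and 0.461 in KO-TAC against TAC. That scaling moved the median of all genes to 0.38, 0.18 and 0.57. With each library left out the biogenesis regulators had medians of -1.79 to -0.193 (TAC against control) and 0.0464 to 1.61 (KO-TAC against TAC), from without TAC replicate 2 to without TAC replicate 3 in the first and the reverse in the second. Ppargc1a had 0.10 in TAC against control, -1.967 by limma-voom, and -2.827 (without TAC replicate 2) to 0.6589 (without TAC replicate 3) with a library left out. Over all genes edgeR called 0, 0 and 0, DESeq2 1626, 195 and 89, limma-voom 7229, 996 and 991, edgeR without TAC replicate 2 5477, 13 and 3, and with only the 2 groups compared 0, 0 and 30. Of single mitochondrial genes under all settings, 85 of 1197 values changed sign without passing a threshold. Depth limits only the least abundant tRNA genes, the lowest count being 23.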
